A study of Mus musculus with 6 samples.

Results

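Regions of open chromatin that were listed in all 3 libraries of mice given PBS and in no library of mice given doxorubicin are described here. They were chosen by rank. Each library's peaks on chromosomes 1 to 19 and X were ordered by −log10 p, and the strongest 65462 of each were kept. That is the length of the shortest list, of PBS replicate 3, which was kept whole. Overlapping peaks of the 6 lists were merged into 78613 regions. Of these, 238 had a peak in every PBS list and in no DOX list. They make up 0.303% of all regions (percentage of regions called PBS-only). The regions listed only after DOX, 623, make up 0.792%. Since the values of both groups chose the members, their levels in the 2 groups are given as a description, with no test.

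The cells were mesenchymal stem and progenitor cells (MSPCs) of bone marrow, sorted for tdTomato from female Lepr-Cre;LSL-tdTomato+/- mice. Cre driven from the leptin receptor gene switches the reporter on in cells of that lineage and their descendants, so that a sorted cell need not express Lepr itself, and the controls carried the same alleles. Mice aged 8 to 10 weeks received 4 intravenous doses of doxorubicin (DOX, an anthracycline that poisons topoisomerase II) at 5 mg/kg, or of phosphate-buffered saline (PBS), 1 week apart. The marrow was taken 8 weeks after treatment. Each group had 3 libraries, titled as biological replicates. How many mice went into a library is not stated in the labels.

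In ATAC-seq the transposase Tn5 inserts adapters where DNA is not wrapped or covered, so peaks mark promoters, enhancers and other accessible elements. Peaks at gene starts are mostly shared between cell types, while those far from genes, many of them enhancers, differ more between cell types and states. Cells of the leptin receptor lineage wrap marrow sinusoids, secrete Cxcl12 and Kitl for blood stem cells, and give rise to bone and fat cells. A bulk library does not tell fewer cells with a region open from less opening per cell.

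A start of a gene lay in few of these regions, and the 3 that overlapped a promoter window of the RefSeq table (GRCm38.p6, the assembly that mm10 displays) are shown to let a reader see what kind of start was among them. Sequences of the other regions are not shown here. Each window runs from 250 bases before to 50 after a gene's start, 5′ to 3′ on the gene's strand, with the bases inside the PBS-only region in capitals. Pou4f1, on the minus strand, encodes a POU homeodomain factor of sensory neurons (window chr14:104467950-104468249, region chr14:104467818-104468185). Rhbdl2, on the plus strand, encodes a rhomboid protease (window chr4:123787625-123787924, region chr4:123787622-123787918). Gkn3, on the minus strand, encodes a gastrokine, a protein of the stomach lining (window chr6:87388886-87389185, region chr6:87388827-87389120).
Pou4f1: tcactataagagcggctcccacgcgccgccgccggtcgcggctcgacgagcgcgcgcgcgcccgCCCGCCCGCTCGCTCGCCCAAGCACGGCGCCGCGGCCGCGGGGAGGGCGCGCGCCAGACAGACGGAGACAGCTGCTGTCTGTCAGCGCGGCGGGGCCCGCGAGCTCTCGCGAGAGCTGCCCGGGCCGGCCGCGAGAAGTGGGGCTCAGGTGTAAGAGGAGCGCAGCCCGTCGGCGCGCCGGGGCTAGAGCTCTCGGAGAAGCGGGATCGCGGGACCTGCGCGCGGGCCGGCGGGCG
Rhbdl2: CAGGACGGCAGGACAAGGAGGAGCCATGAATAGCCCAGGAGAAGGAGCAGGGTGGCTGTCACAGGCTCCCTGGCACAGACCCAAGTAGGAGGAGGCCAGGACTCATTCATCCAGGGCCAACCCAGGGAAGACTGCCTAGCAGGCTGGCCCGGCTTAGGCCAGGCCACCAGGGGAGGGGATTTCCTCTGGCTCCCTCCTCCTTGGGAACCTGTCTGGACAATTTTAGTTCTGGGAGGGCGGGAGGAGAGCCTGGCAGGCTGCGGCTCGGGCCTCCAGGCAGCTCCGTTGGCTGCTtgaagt
Gkn3: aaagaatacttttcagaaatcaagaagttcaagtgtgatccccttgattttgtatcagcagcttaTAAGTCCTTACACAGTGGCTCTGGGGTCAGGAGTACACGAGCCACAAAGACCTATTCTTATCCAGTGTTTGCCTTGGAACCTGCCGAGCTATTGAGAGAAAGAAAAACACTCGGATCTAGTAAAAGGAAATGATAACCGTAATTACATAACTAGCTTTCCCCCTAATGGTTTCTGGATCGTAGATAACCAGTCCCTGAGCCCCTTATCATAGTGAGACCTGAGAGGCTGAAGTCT
The 3 windows differed in composition. The Pou4f1 window had 57 CpG and 78.3% G or C, the Rhbdl2 window 6 and 63.3%, and the Gkn3 window 5 and 42.7%. Over 32412 windows of different sequence the medians were 7 CpG and 53%. The letters GGGCGG, the core of a GC box, occurred 2 times in the Pou4f1 window and 1 time in the Rhbdl2 window, counted on both strands, and 36.0% of all windows held them. None of the windows held TATAAA (13.6% of all windows), CCAAT (37.5%), the AP-1 letters TGACTCA (5.20%) or the forkhead letters TGTTTAC (3.67%), nor the palindromic motif of early B cell factors (0.913%).

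The regions were weak peaks in PBS and weaker ones in DOX. A peak's height is given here as the pileup of fragments at its summit, divided by the mean pileup over the genome of the same library. This ratio, called times background, sets libraries of different depth side by side. Its median over the 238 regions was 15, 15.5 and 16.1 in PBS replicates 1, 2 and 3. In the full deposited lists of DOX replicates 1, 2 and 3 it was 9.88, 10.2 and 9.90, over the 220, 207 and 230 regions that these list. The regions in all 6 lists were higher, with medians of 49.6, 53.8 and 46.6 in PBS against 49.4, 54.4 and 54.9 in DOX.

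**Figure D1:**
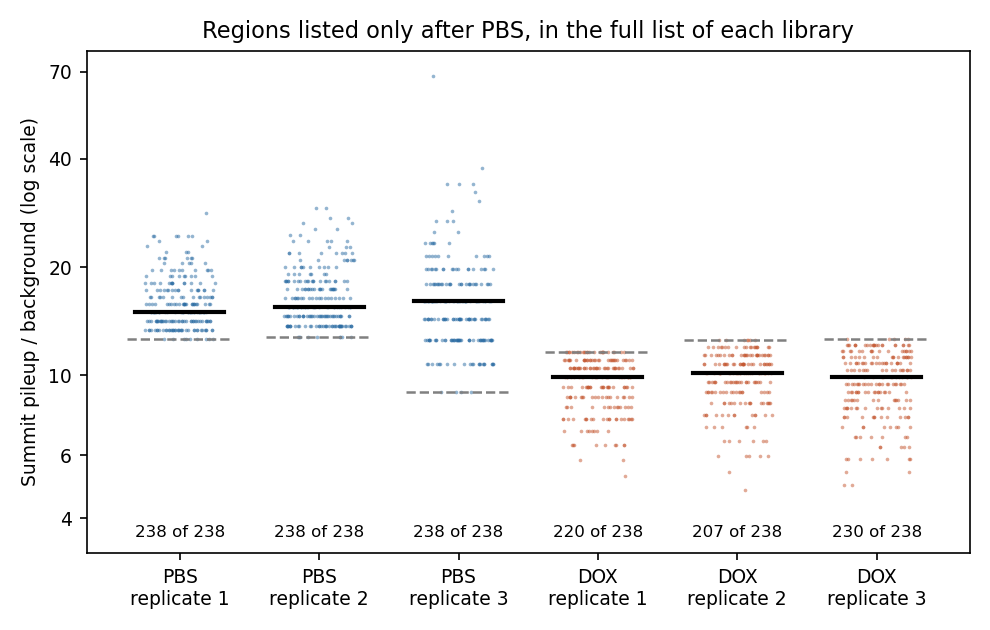
Times background (log scale) of the regions listed only after PBS in the full deposited list of each library. Each point is 1 region, the black bar is the median, the dashed line is the weakest peak among the strongest 65462, and the numbers below give how many of the 238 regions the library lists. All points lie at or above the line in PBS and at or below it in DOX, as the rule requires, and the DOX medians are close to 10.

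Most of the regions were also peaks in DOX, only of lower rank. Of the 238, 191 (80.3%) had a peak in each of the 3 full DOX lists, 39 in 2 of these lists, 6 in 1 and 2 in none. Their median rank was 58540, 58201 and 55597 in PBS against 71972, 72629 and 75158 in DOX, where rank 1 is the strongest peak. The best rank of any of them was 38684 in PBS replicate 1, 38481 in PBS replicate 2 and 18498 in PBS replicate 3. The summits also coincided. The 3 PBS summits of a region lay a median of 55 bp apart, and the median DOX summit lay a median of 24 bp from the median PBS summit. In 218 of the 236 regions with any DOX peak that distance was at most 100 bp.

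Among the 191 regions with a peak in every library, the median PBS value was 1.60 times the median DOX value (quartiles 1.44 and 1.84, range 1.16 to 3.23, in times background). In 119 of them it was more than 1.5 times, in 34 more than 2 times and in 1 more than 3 times. The PBS values lay wholly above the DOX values in 177 and overlapped in 14. Among the 49098 regions in all 6 lists PBS lay wholly above DOX in 5.4%, without the centring of libraries that is used further below. The choice of members largely sets their separation, and nothing is read from it. The same holds wherever the PBS and DOX values of a named region are said below to lie apart.

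Depth limits these values. The background was 1.27, 1.1 and 0.558 fragments per position in PBS against 1.72, 1.67 and 2.22 in DOX. Summit pileups of the regions were therefore small, with medians of 19, 17 and 9 fragments in PBS against 17, 17 and 22 in DOX. In 113 of the 191 regions the median DOX pileup was at or above the median PBS pileup before division by the background. A pileup of 19 in PBS replicate 1 has a 95% counting interval of 11.4 to 29.7, or 9.01 to 23.4 times background, and a pileup of 17 in DOX replicate 1 one of 5.76 to 15.8 times background (exact Poisson, counting error only). In all 191 the interval of the lowest PBS library overlapped that of the highest DOX library. Overlap of such intervals is not a test of the difference.

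The rule's edge runs through the members, and it lies lower in PBS replicate 3, whose whole list was kept. Of the other lists 65.0% to 74.1% was kept. The weakest kept peak had 12.6, 12.8 and 8.97 times background in PBS against 11.6, 12.6 and 12.6 in DOX. A peak of PBS replicate 3 could thus count as listed at a height at which a DOX peak did not. Since p depends on whole fragments, 2466 and 2723 peaks tied at the last rank in PBS replicates 1 and 2, and 1886, 1711 and 1372 in DOX. Position decided which of them were kept. In PBS replicate 3 all 693 peaks tied at the last rank were kept, so position decided nothing there. Of the 238 regions, 57 (23.9%) had a peak tied at the last rank in some library, PBS replicate 3 included, and 181 had none. Just inside, a region inside Dock4 (chr12:40788544-40789095) had its weakest PBS peak at rank 65423. A region near Cxcl12 had its strongest DOX peak at rank 65468. Just outside, a region inside Cttn (chr7:144459044-144459409) had its strongest DOX peak at rank 65346 and was not a member.

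The strongest region by its median PBS rank lay inside Ncoa1, a coactivator of nuclear receptors (chr12:4417716-4417977). It had 22.0, 27.4 and 68.1 times background in PBS against 9.88, 10.8 and 10.8 in DOX. PBS replicate 3 stood apart with 38 fragments, and the other PBS libraries were also more than 2 times each DOX library. Next came a region with no protein-coding gene within 100 kb (chr4:31203288-31203668), which had 24.4, 21.9 and 30.5 in PBS against 7.56, 12 and 6.75 in DOX. Its ratio of 3.23 was the largest of the 191. The following pair also lay in gene-poor stretches. At chr6:13412162-13412618 the values were 24.4, 18.2 and 34.1 in PBS against 10.5, 8.37 and 9 in DOX. At chr13:25701838-25702535 they were 24.4, 24.6 and 19.7 against 11, 12 and 12.1. In these 4 regions no PBS value fell among the DOX values.

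The other 6 of the strongest 10 included genes of signalling, adhesion and traffic. They lay 17974 bp from Frs2, an adaptor of fibroblast growth factor receptors (chr10:117166133-117166551), inside Tenm3, a cell adhesion protein of the teneurin family (chr8:49202800-49203148), and 33060 bp from Gng4, a G protein gamma subunit (chr13:13860651-13860986). Others lay 12038 bp from Cog6, a subunit of a Golgi complex (chr3:53029176-53029463), 5924 bp from Dsc1, a desmosomal cadherin on chromosome 18, and in a gene-poor stretch of chromosome 1 (chr1:128786954-128787260). The Tenm3 region had 22.8, 18.2 and 26.9 times background in PBS against 9.30, 10.2 and 9.90 in DOX. Where these 6 had a DOX peak it was between 7.56 and 11.6 times background.

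**Figure D2:**
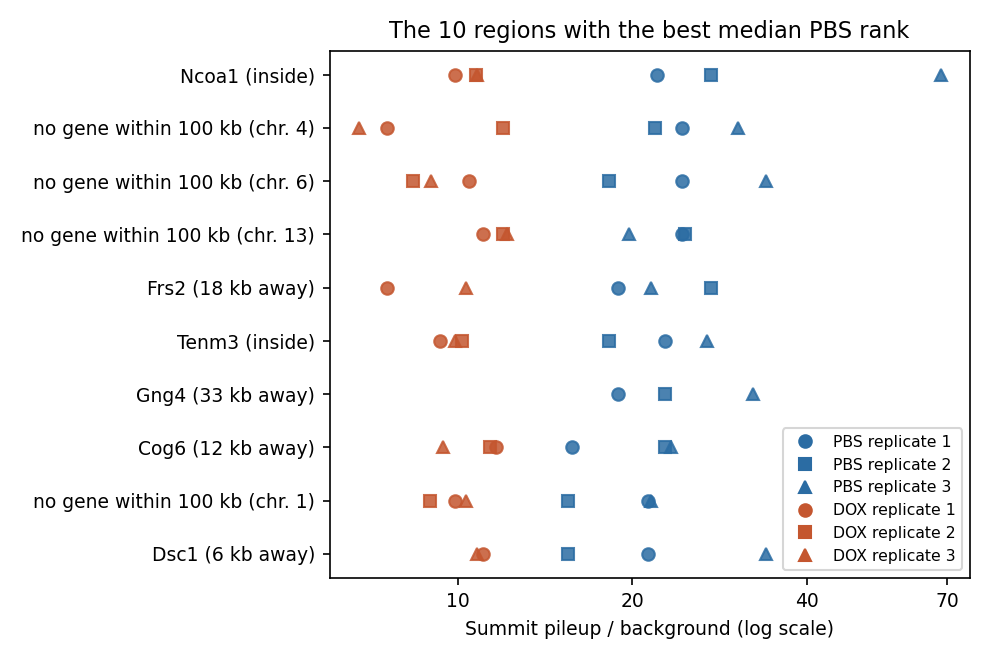
Times background (log scale) in each library for the 10 regions with the best median PBS rank, from the best at the top. Blue marks are PBS and orange marks DOX, with a shape for each replicate number, and a library without a mark has no peak there. PBS lies above DOX in every row that has a DOX mark, which the choice of members largely sets. The Ncoa1 region reaches 68.1 in PBS replicate 3, and the Gng4 region has no DOX mark.

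In 2 regions no DOX library had a peak at all. The Gng4 region had 18.9, 22.8 and 32.3 times background in PBS, while the lowest peaks that the DOX libraries list are 4.65, 4.78 and 4.05 times background. The other lay inside Smg6, an endonuclease of nonsense-mediated mRNA decay (chr11:75159661-75159849), with 15, 12.8 and 17.9 in PBS, of which the second tied at the last rank. A further 6 regions were listed by 1 DOX library. They lay near Rfx8, Becn2 and Spcs3, inside Kcnk2, a two-pore potassium channel, and Snx6, a sorting nexin, and in a gene-poor stretch of chromosome 1 (chr1:73175260-73175537). The region near Becn2, a relative of the autophagy gene Becn1, had 23.6, 20.1 and 14.3 in PBS and a peak of 10.2 in DOX replicate 2.

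By the deposited fold enrichment, the 10 largest ratios of PBS to DOX were found at the Ncoa1 region, 3 regions in gene-poor stretches, and 6 others. These were near A830018L16Rik, Tns1 and Tspan11 and inside Wipf1, a regulator of actin assembly, Dlc1, a tumour suppressor, and Tnfrsf19, a tumour necrosis factor receptor family member. The Wipf1 region (chr2:73487205-73487753) had 19.7, 26.5 and 19.7 times background in PBS against 8.14, 9.57 and 6.30 in DOX, with no overlap. The Dlc1 region had 13.4, 13.7 and 8.97 against 10.5, 5.38 and 5.40, so that DOX replicate 1 lay above PBS replicate 3.

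The regions lay far from gene starts. In 14 of 238 regions the summit was no more than 1 kb from the start or the far end of a protein-coding gene (5.88%, 95% exact binomial interval 3.25% to 9.67%). The share was 8.51% of regions listed only after DOX, 5.98% of regions listed in exactly 3 libraries, which include both kinds, 22.9% of regions in all 6 lists and 16.5% of all regions. The first 3 kinds of region were of similar rank, with a median over regions of 57642, 57603 and 58480, against 25155 for those in all 6 lists. A further 104 (43.7%) of the PBS-only regions lay inside a gene and 120 (50.4%) outside. Introns and exons were not told apart.

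No protein-coding gene lay within 100 kb of 46 PBS-only regions (19.3%, interval 14.5% to 24.9%). The share was 10.6% of the DOX-only regions (interval 8.29% to 13.3%), 11.9% of regions in exactly 3 libraries and 9.63% of all regions. From the summit to the nearest start of a protein-coding gene in the promoter table the median distance was 66572 bp over 228 PBS-only regions outside chromosome 18, for which the table has no windows. It was 35541 bp for DOX-only regions, 43771 bp for regions in exactly 3 libraries and 33089 bp for all. The table is not complete, which lengthens such distances in each kind. The difference in gene-poor regions was not tested, since regions are not replicates. It was smaller with shorter lists, with 11.1% of PBS-only against 8.01% of all regions when the strongest 32731 peaks were kept.

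**Figure D3:**
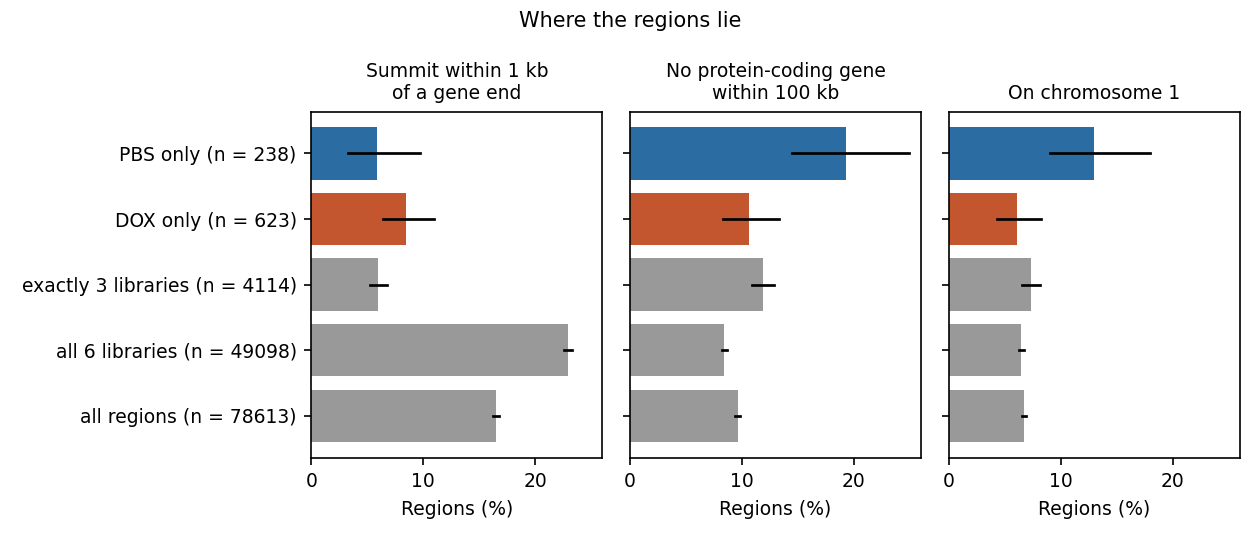
Share of regions (%) with a summit within 1 kb of a gene end, without a protein-coding gene within 100 kb, and on chromosome 1, for 5 kinds of region. Black lines are 95% exact binomial intervals, which cover counting error only. PBS-only regions have a share of 5.88% at gene ends, close to the 5.98% of regions in exactly 3 libraries, and shares of 19.3% and 13.0% in the other panels.

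**Figure D4:**
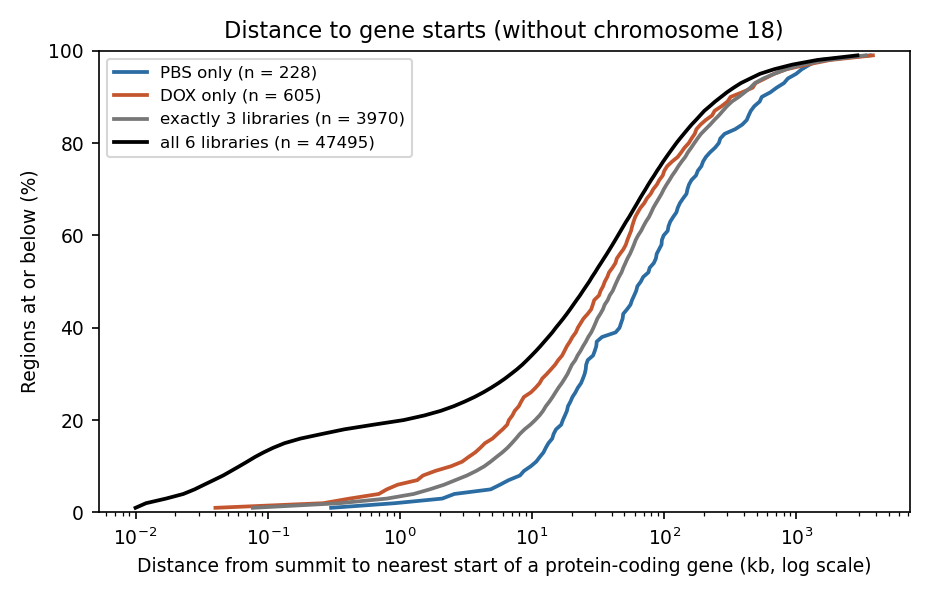
Cumulative share of regions (%) by the distance from the summit to the nearest start of a protein-coding gene (kb, log scale), for 4 kinds of region without chromosome 18. The PBS-only regions have a median of 66572 bp, against 35541 bp for the DOX-only regions.

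At a gene end, 6 of the 14 regions lay at a start, 7 at the far end of the gene and 1, at Oacyl, could not be placed. Those at a start were Pou4f1, Rhbdl2 and Gkn3, whose windows are printed above, and Tlr12, Crybb3 and Sh3kbp1. The Tlr12 region, 783 bp from this Toll-like receptor gene (chr4:128619079-128619544), had 19.7, 18.2 and 16.1 times background in PBS against 6.98, 10.2 and 7.65 in DOX, all PBS values being above all DOX values. The Gkn3 region had 17.3, 14.6 and 19.7 against 8.14, 7.77 and 12.1. The Rhbdl2 region had 18.1, 13.7 and 16.1 against 9.30, 9.57 and 9.45. At Pou4f1 the groups overlapped, with 13.4, 14.6 and 10.8 in PBS against 8.14, 10.2 and 10.8 in DOX. Pou4f1 is also in the list of Schwann cell and neuron markers.

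Far ends were those of Igfbp2, Bok, a BCL-2 family protein, Smarca2, an ATPase of SWI/SNF chromatin remodellers, Spata21, Vgll4, a cofactor that binds TEAD factors, Fadd, the adaptor of death receptors, and Aifm1, a mitochondrial oxidoreductase of cell death and respiration. The Vgll4 region (chr6:114861085-114861484) had 18.1, 19.2 and 17.9 times background in PBS against 7.56, 10.8 and 8.10 in DOX. The Smarca2 region (chr19:26778968-26779280) had 15, 25.5 and 16.1 against 8.72, 10.2 and 11.2. In both the groups were apart, as in 177 of the 191 regions with a peak in every library. The PBS values of Vgll4 lay within a narrow range, which was common. In 173 of all 238 regions the 3 PBS values lay within a factor of 1.5. Of the 14 regions at gene ends, 8 had no tied peak.

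On chromosome 1 lay 31 of the 238 regions (13.0%, 95% exact binomial interval 9.02% to 18%), against 6.74% of all regions and 6.10% of the DOX-only regions. The share was 14.4% among the 181 regions without a tied peak. It was lower at other list lengths. When 32731 or 49096 peaks were kept, or the full lists, 8.02%, 3.98% and 4.65% of the PBS-only regions lay there, which are 13, 7 and 2 regions. Of all regions in these settings 6.50%, 6.56% and 6.69% lay there. The PBS-only share was thus above that of all regions with 32731 peaks and below it with 49096 peaks and with the full lists.

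A single run held 6 of them within 1145 kb, from Igfbp2 over Igfbp5 to Tns1 (chr1:72847938-73992867). With gaps of up to 500 kb counted as 1 run, the 238 regions fell into 208 single regions, 12 pairs and this run, which was picked out after its values were seen. Igfbp2 and Igfbp5 encode binding proteins of insulin-like growth factors, and Igfbp5 is strongly expressed in marrow stroma. Tns1 encodes tensin, which ties integrins to actin. In the run lay 42 regions of all 6 lists, no DOX-only region and 27 others.

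The members of the run differed in kind. At the far end of Igfbp2 the region was 5196 bp wide (chr1:72847938-72853133), the widest of the 238, and held 4 peaks in each PBS library, with 14.2, 17.3 and 16.1 times background at the strongest. The full DOX lists held 3, 4 and 4 peaks there, with 10.5, 10.2 and 10.3, and their median summit lay 2249 bp from that of PBS. A region 69542 bp beyond Igfbp5 (chr1:72944296-72944617) had 24.4, 20.1 and 12.6 in PBS against 9.30, 12 and 12.1 in DOX. PBS replicate 3 lay just above the DOX libraries there. The next, at chr1:73175260-73175537 and without a gene within 100 kb, had 14.2, 29.2 and 12.6 in PBS and a peak of 12.1 in DOX replicate 3 only. A further region without a gene within 100 kb (chr1:73579764-73580122) had 15.7, 22.8 and 14.3 against 9.30, 9.57 and 9. Its PBS values were all above its DOX values. Outside Tns1, at 49736 bp (chr1:73860332-73860717), the values were 15, 23.7 and 10.8 against 6.40, 7.17 and 9.90. Inside Tns1 (chr1:73992602-73992867) they were 18.1, 14.6 and 16.1 against 8.72, 9.57 and 12.1, again without overlap.

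The shared regions of the run had values on both sides of 0. On a log2 scale of times background, with each library centred on its median over all shared regions, the median difference of DOX minus PBS was -0.07 over the 42, against -0.05 over all 49098. PBS lay wholly above DOX in 7 of the 42 (16.7%), where 13.8% of all shared regions did, and DOX wholly above PBS in 4 (9.52%, against 7.27%).

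**Figure D5:**
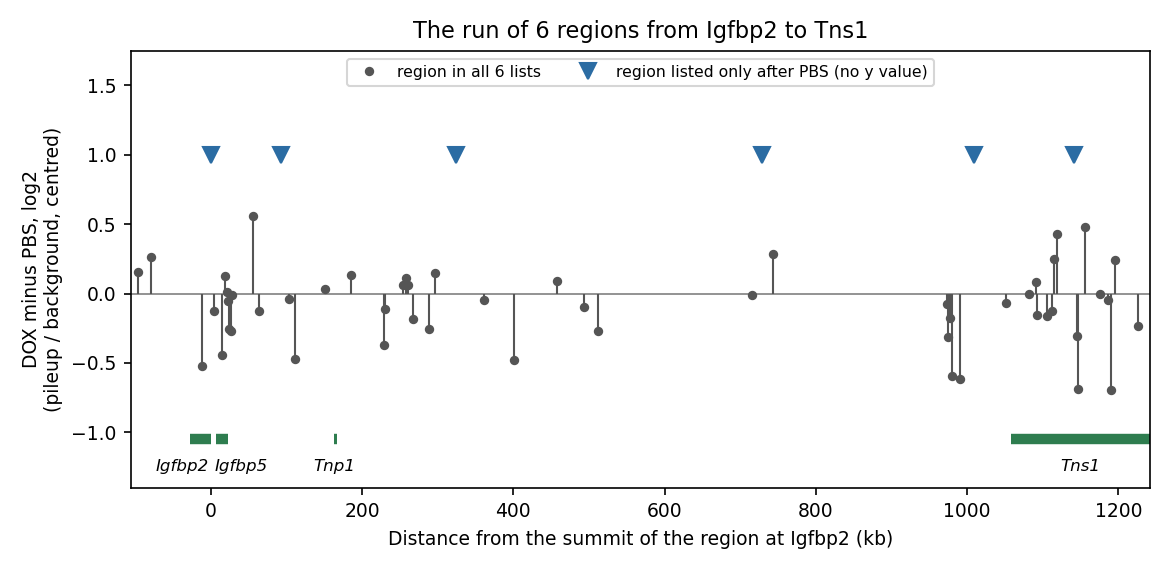
The run of PBS-only regions, by distance (kb) from the summit of the Igfbp2 region. Grey points give the difference of DOX minus PBS in log2 times background, centred per library, for regions in all 6 lists, blue triangles mark the 6 PBS-only regions (no y value), and green bars are protein-coding genes. Grey points lie on both sides of 0, with a median of -0.07 within the run.

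Shared regions around all 238 members were looked at in the same way, with no test. Within 100 kb of a PBS-only region lay 1673 shared regions, with a median centred log2 difference of -0.05, as over all. PBS lay wholly above DOX in 15.3% of them and DOX wholly above PBS in 6.81%. Within 5 kb lay 92 shared regions, with a median of -0.12 (quartiles -0.29 and 0.06), and PBS lay wholly above DOX in 12%, against 13.8% of all shared regions. DOX lay wholly above PBS in 2 of the 92 (2.17%), against 7.27% of all. The median of these 92 was thus lower than that over all shared regions, -0.05, but the libraries of the 2 groups overlapped. By library, the centred median of the 92 was -0.26, -0.23 and -0.38 in PBS against -0.28, -0.42 and -0.35 in DOX. Of the PBS-only regions 72 (30.3%) lay within 5 kb of a shared region, and the median gap to the nearest was 11501 bp.

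Among 30 identity and niche genes of MSPCs, 2 had a PBS-only region, Cxcl12 and Igfbp5, where 0.865% of all protein-coding genes had one. Of the regions assigned to these 30 genes 0.420% were PBS-only, against 0.270% of all assigned regions. Counts this small are given for each list as a description. A region 5842 bp from Cxcl12, the chemokine that retains blood stem cells (chr6:117186310-117187386), had 15, 14.6 and 17.9 times background in PBS against 9.88, 8.97 and 12.6 in DOX. DOX replicate 3 tied there with the weakest kept peak of its list, and the PBS summits lay 492 bp apart, the widest spread of all members. It was a member in 4 of the 10 other settings tried without leaving out a library. Cxcl12 also had 2 DOX-only regions.

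Among genes of the cell fates open to these cells, none of 24 osteoblast genes had a PBS-only region, beside 0.865% of all genes. Of 25 adipocyte genes 1 did, Zfp423, a zinc finger factor that commits cells to fat. Its region inside the gene (chr8:87859941-87860356) had 18.9, 23.7 and 19.7 times background in PBS against 10.5, 10.8 and 10.8 in DOX. That the groups did not overlap was largely set by the choice of members. Of 20 cartilage genes 1 did, Sox6, a factor of chondrocytes, with a region inside the gene (chr7:115615916-115616220) that had 14.2, 19.2 and 17.9 in PBS, no peak in DOX replicate 1, and 8.97 and 11.2 in the other DOX libraries. PBS-only regions made up 0.450% of the regions assigned to the adipocyte list and 1.23% of those of the cartilage list, against 0.270% of all. Both genes also had a DOX-only region.

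Signalling and matrix lists gave single genes. Of 47 genes of the Wnt pathway Tcf7l2, a factor that binds beta-catenin, had a region (19.7, 15.5 and 14.3 times background in PBS, 11, 11.4 and 10.8 in DOX). Of 30 cytokines and chemokines Il33, an alarmin, had one, with 15.7, 17.3 and 10.8 against 8.14, 11.4 and 11.2, where the groups overlapped. Of 40 nuclear receptors and coactivators it was Ncoa1, described above. Of 47 matrix genes Fmod, a collagen-binding proteoglycan (12.6, 13.7 and 14.3 against 8.72, 7.77 and 8.55), and Lox, which crosslinks collagen, had one. Of 51 limb and Hox factors Meis1 and Tbx18, a T-box factor of limb and pericyte development, had one. The Tbx18 region (chr9:87761641-87761962) had 18.9, 14.6 and 21.5 in PBS against 7.56, 8.37 and 6.30 in DOX, a ratio of 2.5.

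No PBS-only region was assigned to the 37 genes of the TGF-beta and BMP pathway, the 26 AP-1 and immediate early factors, the 30 p53 and senescence genes or the 35 cell cycle genes. In all, 15 of 595 list genes (2.52%) had a PBS-only region, where 0.865% of protein-coding genes did. The list genes hold more regions of any kind, and 0.354% of the regions assigned to them were PBS-only, against 0.270% of all assigned regions. By list the share ran from 0% to 2.17%, on at most 2 regions each. The 14 of these 15 members with peaks in all 6 libraries had a median ratio of PBS to DOX of 1.60, as had the members in general.

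Markers of other cells had PBS-only regions at 4 genes. Of 30 endothelial markers Erg and Cdh5 had one, at 56738 and 78529 bp, which is 1.52% of the regions assigned to the list. The Erg region (chr16:95643129-95643679) had 21.3, 21.0 and 16.1 times background in PBS against 11, 9.57 and 9 in DOX. Of 20 Schwann cell and neuron markers Pmp22 and Pou4f1 had one, 2.17% of that list's regions. Both shares stand above the 0.270% of all assigned regions, each on 2 regions, and were not tested. None of 20 B cell, 22 T and NK cell, 27 myeloid, 25 erythroid and megakaryocyte or 16 pericyte and smooth muscle markers did. As a check of the sort, a peak summit lay within 1 kb of a gene end in 10 to 11 of the endothelial, 4 to 5 of the B cell, 4 to 7 of the T and NK cell, 9 to 11 of the myeloid, 6 to 7 of the erythroid and megakaryocyte, 12 to 14 of the pericyte and smooth muscle and 9 to 10 of the Schwann cell and neuron markers in each library, and in 24 to 26 of 30 MSPC genes. Lepr, Cxcl12 and Pdgfrb had one in all 6 libraries. Ptprc, Cd3e, Elane, Cdh5 and Pecam1 had none in any, and the counts above hold for the whole lists. The part of other cells in the PBS-only regions was not tested.

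Few genes gathered several members. Apart from Tns1, the genes with 2 PBS-only regions were Kcnk2, Asap2, a GTPase-activating protein of Arf, Grk2, a kinase of G protein-coupled receptors, and Wwox, a tumour suppressor oxidoreductase. Of the 2 Asap2 regions the first (chr12:21138436-21138980) had 13.4, 18.2 and 16.1 times background in PBS against 5.81, 6.58 and 7.65 in DOX. The second (chr12:21160418-21160882) had 12.6, 13.7 and 10.8 against 10.5, 10.8 and 12.1, so the groups overlapped there. Of the 187 genes with a PBS-only region 14 also had a DOX-only region, among them Cxcl12, Zfp423, Sox6, Tcf7l2, Erg and Smarca2. The share of all protein-coding genes with a DOX-only region was not counted. Nothing is therefore read from this overlap, here or where single genes are named above.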

How the data were processed

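ATAC-seq peaks of 3 PBS and 3 DOX libraries were analysed as the authors deposited them, 1 list per library, in mm10 per the submitters' processing notes. These name, among others, MACS2 2.2.7.1, Bowtie2 2.4.5, Trim Galore 0.6.6 and Picard 2.10.9, with no role or order. Settings of the peak caller, read filters and any Tn5 shift are not stated in the labels. The authors deposited, for each peak, a fold enrichment (ratio of summit to background), a −log10 p, a −log10 q, a score and a summit, none of them scaled between libraries. The 13 to 19 peaks per library outside chromosomes 1 to 19 and X were left out.

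Ties in −log10 p were broken by fold, then by position in the order of the files (chromosomes 1, 10, 11 and so on). The fold is pileup plus 1 over background plus 1. Its steps gave the background, with whole pileups to within 0.05 and the Poisson −log10 p matched to within 0.1 in 100% of peaks with a −log10 p under 200. Intersections used at least 1 bp. Where a library had several peaks in a region, the strongest was taken. A region's summit is the median over the listing libraries, and its gene the nearest protein-coding span within 100 kb in RefSeq (GRCm38.p6, 21627 genes). No test was fitted, because the members were chosen by these values. Python 3.11.15, pandas 2.3.3 and scipy 1.17.1 were used, and ranking, merging and depth recovery were tested on simulated data.

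The members and the gene lists were chosen with earlier results of these data known. Named are the 10 regions of best median PBS rank, all at gene ends, all at list genes, genes with 2 or more, up to 10 absent from DOX lists, the 10 with the largest ratio of PBS to DOX fold, and those next to the rank threshold. Single values of some marker genes are not reported here.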

Additional observations from a re-analysis of the deposited data

How the results depend on the processing

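Which regions are PBS-only depends on the list length, and so does their number. With the strongest 32731 or 49096 peaks of each library there were 162 and 176, and with the full deposited lists 43. These are 0.427%, 0.306% and 0.038% of the regions of each setting. Of the 238 regions, those settings held 0, 3 and 2. The rule sets much of this overlap. The best rank of any of the 238 in PBS replicate 1 was 38684, outside a list of 32731. The 2 held with full lists are those without any DOX peak. The full lists are unequal, from 65462 peaks in PBS replicate 3 to 100642 in DOX replicate 3, and gave 2151 DOX-only regions. Ranking by fold or −log10 q gave the same 238, as it must where all values follow the pileup. With windows of 250 bp on each side of summits in place of peaks there were 503, which included all 238. Leaving out a library gave 383 to 681 regions (681 without PBS replicate 3, 610 without PBS replicate 1, 511 without PBS replicate 2, 467 without DOX replicate 1, 399 without DOX replicate 3 and 383 without DOX replicate 2), since fewer lists then have to be filled or empty. With tied peaks in numeric chromosome order, left out or all kept, which were settings chosen after seeing the data, 205, 217 and 202 of the 238 remained members. The share at gene ends was 2.33% in full lists, 14.9% with summit windows and 10.1% with a limit of 2.5 kb, and 5.14% to 6.52% with a library left out. The share without a gene within 100 kb was 11.1% with 32731 peaks, 11.9% with summit windows, and 15.7% to 19.3% with a library left out. The share on chromosome 1 was 8.02%, 3.98% and 4.65% with 32731, 49096 and all peaks, against 6.50%, 6.56% and 6.69% of all regions. It was 8.55% with summit windows and 8.85% to 12.8% with a library left out, lowest without PBS replicate 1. The median ratio of DOX to PBS was 0.784 by the deposited fold, 0.734 to 0.875 with a library left out, and 0.625 by times background. The deposited fold adds 1 to pileup and background, which lowers it most in the shallowest library. For other causes of these changes, the cause was not tested. No paired analysis was possible because no result here comes from a test that could take a block. The titles number the libraries 1 to 3 in both groups, and the labels do not say that a number ties a PBS to a DOX library.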

Other observations

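Some further PBS-only regions lay at genes of growth factor signalling and of transcription. They fall outside the rule for named regions and were chosen after their values were seen. A region inside Igf1r, the receptor of insulin-like growth factor 1 (chr7:68148428-68148893), had 15, 13.7 and 14.3 times background in PBS against 6.98, 8.97 and 7.65 in DOX. One inside Fgf2, a fibroblast growth factor (chr3:37373759-37374057), had 17.3, 18.2 and 16.1 against 10.5, 8.97 and 8.10. One 29391 bp from Jak2, the kinase of cytokine receptors (chr19:29221996-29222898), had 15.7, 13.7 and 14.3 against 6.98, 9.57 and 6.75. In these 3 the PBS values lay in a narrow range above the DOX values, and the choice of members largely sets that they lay above. Narrow PBS ranges were common, with values within a factor of 1.5 in 173 of the 238 regions.

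Inside Wls, which carries Wnt proteins to the cell surface (chr3:159885837-159886383), the values were 14.2, 13.7 and 19.7 in PBS against 6.40, 8.97 and 4.95 in DOX. Inside Sufu, an inhibitor of hedgehog signalling (chr19:46476655-46477090), they were 15.7, 16.4 and 19.7 against 6.98, 11.4 and 7.65. Among transcription factors, Mef2c (chr13:83649781-83650044) had 13.4, 15.5 and 16.1 against 10.5, 4.78 and 7.65, and Foxo3 (chr10:42270813-42271176) had 13.4, 13.7 and 14.3 against 9.30, 10.2 and 9.45. A region 4585 bp from Per2, a repressor of the circadian clock (chr1:91463754-91464279), had 14.2, 17.3 and 17.9 against 11, 11.4 and 9.90. Regions 48101 bp from Cd28 and 57693 bp from Ctla4, neighbouring genes of T cell costimulation, had one each. The first had 15.7, 18.2 and 14.3 in PBS against 10.5, 5.98 and 11.7 in DOX, and the second 15, 15.5 and 12.6 against 9.30, 12 and 10.8.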
